A study of Mus musculus with 12 samples.

Results

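The Nr4a, Klf and feedback immediate early genes are 10 genes chosen by name from the 24538 genes of the count tables: Nr4a1, Nr4a2, Klf2, Klf4, Klf6, Dusp1, Zfp36, Btg2, Ier3 and Rgs1. All 10 were found in both tables and all 10 passed the filter on low counts in every comparison. They were picked with their levels over the groups in view, so those levels and differences are given as a description of these libraries and no p is attached to a member. RNA was sequenced from LSK cells, the lineage-negative, Sca-1 and Kit positive marrow fraction that holds the blood stem cells, and from cells labelled MPP (multipotent progenitor, titled Lin). The donors were wild-type (WT), Tet2 KO and Tet2 Mut mice, all of a 129/C57/B6 mixed strain and 10 weeks old. The marrow of 2 mice was pooled for each genotype, and each pool gave 2 technical libraries per population, so that 12 libraries formed 6 groups of 2. The labels do not give the targeted exons of KO, the residues altered in Mut or the gates of MPP. Errors below are SDs of 2 libraries of a pool or SEs of the fit, and they measure the spread between technical libraries and not between mice. The p values and calls below rest on that same spread and do not account for variation between mice.

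Immediate early genes are switched on within minutes of a signal, without new protein synthesis, through MAP kinases such as p38 and through factors such as SRF and CREB that already sit in the cell. Most of their mRNAs are short-lived, and the products of some of them end the response again. The 10 genes cover both sides of this circuit. Nr4a1 and Nr4a2 encode orphan nuclear receptors, of which Nr4a1 restrains proliferation of blood stem cells, and Klf2, Klf4 and Klf6 encode zinc finger factors of the Krüppel-like family. Dusp1 encodes a phosphatase that switches off MAP kinases, Zfp36 encodes tristetraprolin, which binds AU-rich elements and brings mRNAs to decay, and Btg2 encodes an antiproliferative partner of the CCR4-NOT deadenylase. Ier3 encodes a survival protein of the stress response, and Rgs1 encodes a regulator that shortens signalling by chemokine receptors through G proteins.

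Stretches of 7 promoters are shown, since they hold matches to motifs of SRF or CREB, and in Klf2 also of MEF2. Whether the matches bear on the levels below was not tested. The sequences are from RefSeq (GRCm38.p6), whose table held windows from 250 bases before to 50 bases after the start for 9 of the 10 genes. Rgs1 had none. The motifs searched on both strands were the short core of the cAMP response element (CRE), written TGACG, and its full palindrome, written TGACGTCA, which contains 2 overlapping cores. The CArG box bound by SRF, the MEF2 site and an NF-kB site were searched by their usual consensus. Further motifs were the TATA motif (TATAAA), the GC box (written GGGCGG), the NBRE bound by NR4A proteins (written AAAGGTCA), the AP-1 site (written TGANTCA) and the EGR site (written GCGGGGGCG, or with another central base GCGTGGGCG). Capitals mark CRE cores or palindromes, in Klf2 also the MEF2 site and in Zfp36 the CArG box. Each stretch runs 5′ to 3′ on the strand of its gene and ends before the start of transcription.

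Nr4a1: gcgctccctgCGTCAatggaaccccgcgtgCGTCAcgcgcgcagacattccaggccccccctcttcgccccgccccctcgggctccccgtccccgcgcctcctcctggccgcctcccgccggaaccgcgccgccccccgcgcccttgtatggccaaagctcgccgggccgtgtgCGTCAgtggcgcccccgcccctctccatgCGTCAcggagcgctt
Nr4a2: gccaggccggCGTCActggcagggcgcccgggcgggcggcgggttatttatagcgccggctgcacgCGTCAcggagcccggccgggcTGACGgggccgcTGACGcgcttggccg
Klf4: gcctggctggCGTCAcggcctggcc
Klf2: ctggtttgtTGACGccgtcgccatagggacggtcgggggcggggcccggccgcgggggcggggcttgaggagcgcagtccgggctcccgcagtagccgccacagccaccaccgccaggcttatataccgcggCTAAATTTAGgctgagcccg
Dusp1: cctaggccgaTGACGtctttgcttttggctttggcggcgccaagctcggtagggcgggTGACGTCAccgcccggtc
Btg2: ttcccaataaTGACGTCAgtgagcgatg
Zfp36: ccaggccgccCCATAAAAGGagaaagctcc

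These stretches lie at chr15:101266603-101266820 for Nr4a1 (plus strand), chr2:57124100-57124213 for Nr4a2 (minus), chr4:55532693-55532717 for Klf4 (minus), chr8:72318812-72318963 for Klf2 (plus), chr17:26508598-26508673 for Dusp1 (minus), chr1:134079304-134079331 for Btg2 (minus) and chr7:28379267-28379296 for Zfp36 (minus). A CRE core stood in the windows of 6 of the 9 genes, Nr4a1, Nr4a2, Klf2, Klf4, Dusp1 and Btg2, while 20.8% of all 32851 promoter windows of the same length held one. Nr4a1 and Nr4a2 had 4 cores each. The full palindrome was found for Dusp1 and Btg2 (1.79% of all windows), the CArG box for Zfp36 (1.63%) and the MEF2 site for Klf2 (0.557%). An EGR motif was found for Nr4a1, Klf2, Klf4 and Zfp36 (3.47%), an NF-kB motif for Nr4a1 (5.80%), TATAAA for Nr4a2 (13.6%) and a GC box for all 9 (35.7%). The AP-1 and NBRE motifs had no match in the 9 windows, against 7.81% and 1.51% of all windows. The 9 windows held 54% (Ier3) to 81.7% (Nr4a2) G and C. The windows they were set against were not matched for base content, so these shares do not measure enrichment. Such a match is a run of letters and not a measured binding site.

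The shallowest library, LSK WT replicate 1, had 9181027 gene counts and the deepest, MPP Mut replicate 1, had 23532847. All 10 genes had counts above 0 in all 12 libraries. The LSK WT libraries stood apart: they had 12470 and 12614 detected genes against 13333 to 14264 in the others, and the correlation of their log2 levels across genes was 0.879, against 0.957 to 0.968 within the other groups. The share of Rn45s, from which ribosomal RNAs are cut, was 3.65% and 3.70% of gene counts in the LSK WT libraries, 2.47% and 2.51% in those of KO, 0.982% and 1.10% in those of Mut, and 0.873% to 1.10% over MPP. Tet2, the targeted gene, was at 74.9 ± 17.4 CPM (counts scaled to a common library total) in LSK WT, against 30.5 ± 1.82 for KO and 43.9 ± 0.638 for Mut (SD, n = 2), with adjusted p = 0.207 for KO and 0.221 for Mut by edgeR's quasi-likelihood test. The MPP levels were 34.5 ± 7.22 CPM for WT, 34.9 ± 0.00975 for the libraries labelled KO and 38.8 ± 1.97 for Mut, so that the Tet2 count did not set the libraries labelled MPP KO apart. Kit and Ly6a (Sca-1) were at 594 and 75.8 CPM in LSK WT and at 207 and 17.4 CPM in MPP WT, and Mpo, of granulocyte-monocyte progenitors, was at 1580 CPM in LSK WT and 37450 CPM in MPP WT. Mast cell and basophil genes summed to 5244 to 12650 CPM in the MPP libraries and to 304 to 550 CPM in LSK. The plot of summed marker levels shows these differences. In such bulk libraries fewer expressing cells and less RNA per cell cannot be told apart.

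**Figure D1:**
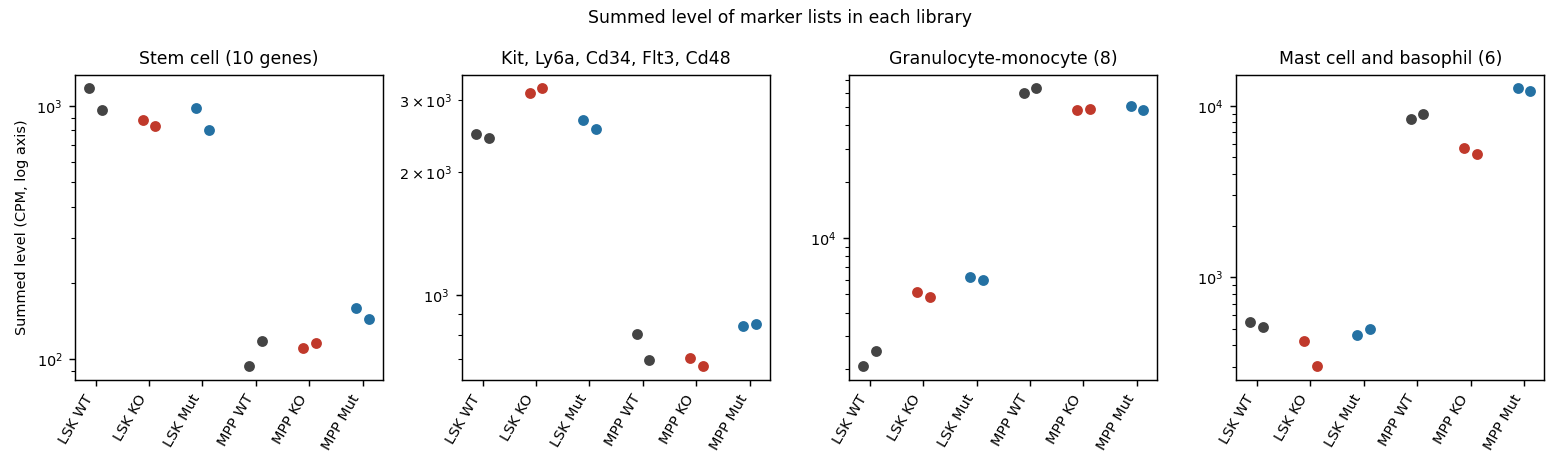
Summed level (CPM, log axis) of 4 marker lists in each of the 12 libraries, grouped by population and genotype, each point a library. The stem cell list summed to 801 to 1173 CPM in LSK and 94.2 to 159 CPM in MPP, and the mast cell and basophil list was highest in MPP Mut.

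In LSK cells, 9 of the 10 genes were lower in both KO libraries than in both WT libraries, as were 18.0% of the 13170 genes tested. In Mut, 5 of the 10 were lower in both libraries than in WT (20.3% of all genes) and 1, Btg2, was higher in both (26.8%). In MPP, 4 of 10 were higher in both libraries labelled KO than in WT (19.9% of the 12947 genes tested), 7 of 10 were higher in both Mut libraries (19.8%), and 0 were lower in both libraries of either genotype (20.1% and 19.4%). The median log2 difference of the 10 genes was -0.51 for LSK KO, -0.21 for LSK Mut, 0.06 for MPP KO and 0.29 for MPP Mut against WT, while the median over all genes tested lay between -0.01 and 0.01. KO and Mut share their WT libraries within a population, so their differences are not independent. With libraries scaled by spike-in RNA the median of all genes moved by 0.51 in LSK KO, 1.10 in LSK Mut, 0.05 in MPP KO and -0.59 in MPP Mut, and the medians of the 10 genes relative to it were -0.51, -0.22, 0.07 and 0.28. On that scale 3 of 10 were lower and 2 of 10 higher in both LSK KO libraries, 2 of 10 lower and 6 of 10 higher in both LSK Mut libraries, and 4 of 10 lower and 2 of 10 higher in both MPP Mut libraries. The share of all genes was not computed on that scale, so nothing is read from these spike-in counts. Without MPP WT replicate 1, 7 of 10 were higher and 1 lower in both MPP KO libraries than in the WT library left. Without MPP WT replicate 2, 7 were higher and 3 lower. A single WT library leaves less room for overlap, and the share of all genes was not computed there, so nothing is read from these counts. The median for MPP Mut was 0.59 without MPP Mut replicate 1 and 0.49 without MPP WT replicate 1.

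**Figure D2:**
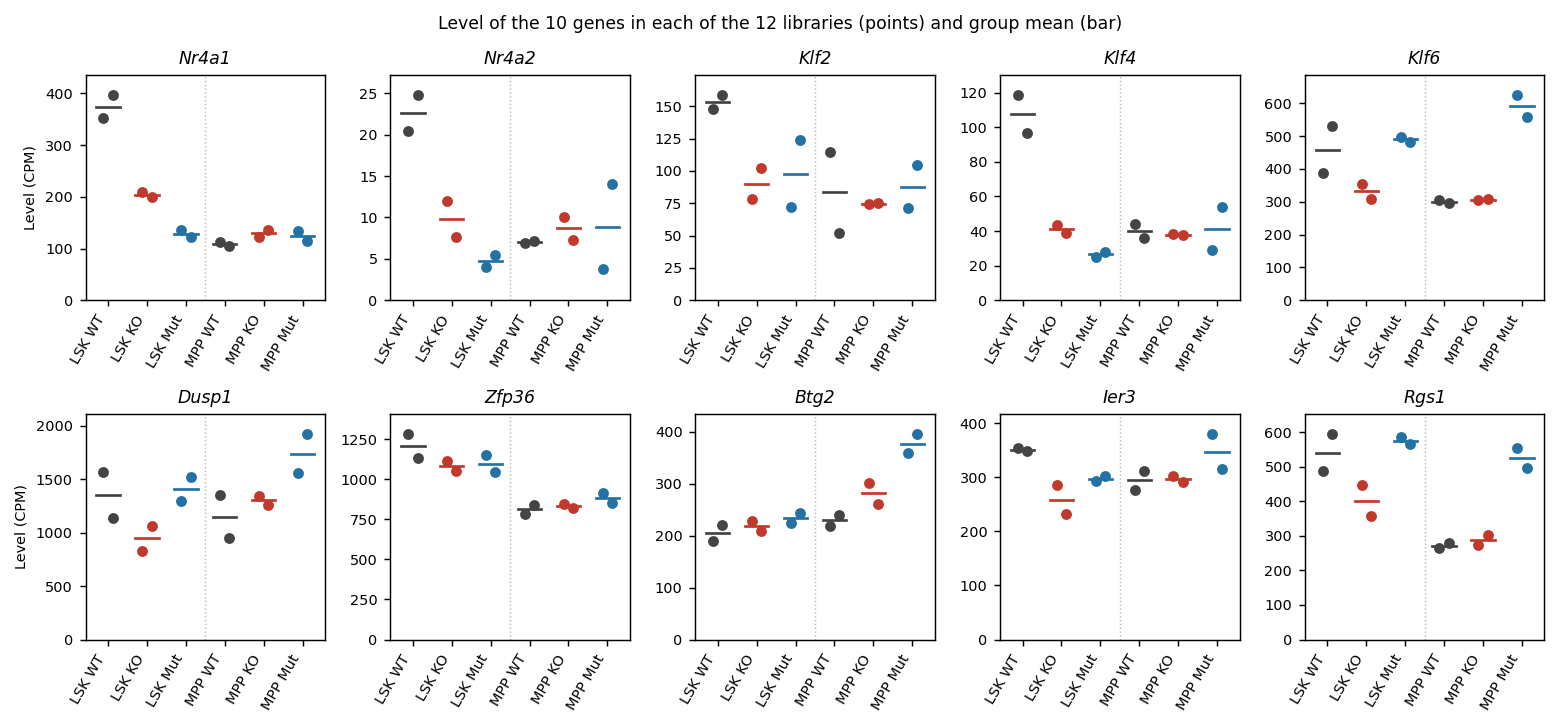
Level (CPM) of each of the 10 genes in the 12 libraries, with a point per library and a bar at the group mean; the dotted line parts LSK from MPP and each axis starts at 0. Nr4a1, Nr4a2, Klf2 and Klf4 are highest in LSK WT, while Klf6, Dusp1 and Btg2 have their highest group mean in MPP Mut.

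Gene positions are those of GRCm38. Nr4a1 (chr15:101254269-101274795, plus strand) was lower in both LSK genotypes. Its level was 352 and 397 CPM in the LSK WT libraries, 210 and 199 in KO and 136 and 121 in Mut. The 3 groups did not overlap and followed the order WT, KO, Mut. The fitted log2 difference from WT was -0.89 (SE 0.147) for KO and -1.56 (SE 0.149) for Mut. In MPP the level was 113 and 105 CPM in WT, against 123 and 136 in the libraries labelled KO and 134 and 115 in Mut, a narrow range close to LSK Mut. The order of the group means was LSK WT, LSK KO, MPP KO, LSK Mut, MPP Mut and MPP WT, in which MPP KO, LSK Mut and MPP Mut overlapped among themselves.

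Nr4a2 (chr2:57106830-57124003, minus strand) followed the same order in LSK with far fewer counts. It was at 20.5 and 24.8 CPM in LSK WT, 12.0 and 7.61 in KO and 3.97 and 5.40 in Mut, with log2 differences from WT of -1.22 (SE 0.593) and -2.29 (SE 0.614). In MPP it was at 6.86 and 7.10 CPM in WT, against 10.0 and 7.33 in the libraries labelled KO and 3.73 and 14.0 in Mut. The spread of the MPP Mut libraries was wider than any difference between the MPP groups.

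Klf4 (chr4:55527143-55532466, minus strand), one of the factors used to reprogram cells and a monocyte factor in blood, had the same order in LSK as Nr4a1. It was at 119 and 96.9 CPM in LSK WT, 43.3 and 38.8 in KO and 24.97 and 27.9 in Mut, again with no overlap between the 3 groups. The log2 differences from WT were -1.41 (SE 0.276) and -2.05 (SE 0.281). In MPP it was at 43.9 and 36.2 CPM in WT, against 38.2 and 37.4 in the libraries labelled KO and 29.1 and 53.6 in Mut, where all 3 groups overlapped. LSK Mut had the lowest group mean of the 6, below MPP KO with no overlap. Over the settings other than spike-in scaling, which left out each LSK library in turn, the LSK differences from WT ran from -0.98 to -0.79 in KO and -1.65 to -1.46 in Mut for Nr4a1, from -1.58 to -0.94 and -2.53 to -2.08 for Nr4a2, and from -1.54 to -1.26 and -2.17 to -1.90 for Klf4. With spike-in scaling they were -0.40 and -0.49 for Nr4a1, -0.74 and -1.15 for Nr4a2, and -0.90 and -0.92 for Klf4.

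Klf2 (chr8:72319033-72321656, plus strand), a factor of lymphocyte quiescence and of endothelium under flow, was at 148 and 159 CPM in LSK WT, 78.0 and 102 in KO and 71.9 and 124 in Mut. LSK WT lay above both other groups, which overlapped with each other. The log2 difference from WT was -0.79 (SE 0.291) for KO and -0.67 (SE 0.291) for Mut, the latter 0.52 with spike-in scaling. In MPP the WT libraries were at 115 and 52.2 CPM and enclosed all the other MPP values, which ran from 71.3 to 104 CPM.

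Klf6 (chr13:5861482-5870394, plus strand) and Rgs1 (chr1:144242296-144249242, minus strand) made up a second pattern. Klf6 was at 386 and 532 CPM in LSK WT, 355 and 309 in KO and 496 and 483 in Mut. The KO libraries lay below the rest, and Mut lay within the range of WT. Rgs1 was at 487 and 594 CPM in LSK WT, 447 and 357 in KO and 585 and 565 in Mut, with the same arrangement. The log2 difference of KO from WT was -0.49 (SE 0.170) for Klf6 and -0.45 (SE 0.151) for Rgs1, and that of Mut was 0.07 for both (SE 0.169 and 0.150). With spike-in scaling the KO differences were -0.01 and 0.04, and those of Mut were 1.15 for both, called higher by edgeR on that scale, where 2980 genes were called higher and 22 lower.

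In MPP, Klf6 was at 305 and 295 CPM in WT, against 305 and 308 in the libraries labelled KO and 625 and 559 in Mut. Rgs1 was at 264 and 280 CPM in WT, against 274 and 301 in the libraries labelled KO and 556 and 496 in Mut. The Mut libraries of both genes were far above the other 4, with log2 differences from WT of 0.98 (SE 0.0946) for Klf6 and 0.95 (SE 0.104) for Rgs1. With spike-in scaling these differences were 0.40 and 0.36. On the scale of the normalised library totals, Rgs1 in MPP Mut thus reached the range of LSK WT, and Klf6 in MPP Mut lay above it. With spike-in scaling, LSK WT lay above MPP WT by log2 differences of 5.19 for Rgs1 and 4.83 for Klf6. The median of all genes moved by 4.17 in that comparison.

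Dusp1 (chr17:26505590-26562128, minus strand) was at 1567 and 1137 CPM in LSK WT, 831 and 1064 in KO and 1296 and 1525 in Mut. Here too the KO libraries were the lowest of LSK, by a log2 difference from WT of -0.53 (SE 0.181), a value that was 0.00 with spike-in scaling. In MPP it was at 1350 and 951 CPM in WT, against 1341 and 1261 in the libraries labelled KO and 1558 and 1920 in Mut, with Mut above WT by 0.59 (SE 0.158), a value that was 0.02 with spike-in scaling. The WT libraries of Dusp1 differed from each other by more than the groups did in LSK Mut against WT. Its annotated exons overlap by a few bases with Ergic1 on the other strand, and whether counting used strand is not given in the sources used here.

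Ier3 (chr17:35821684-35822923, plus strand) was at 354 and 348 CPM in LSK WT, 285 and 231 in KO and 293 and 302 in Mut. Both genotypes lay below WT, by log2 differences of -0.46 (SE 0.141) and -0.26 (SE 0.141), which were 0.04 and 0.85 with spike-in scaling. In MPP it was at 277 and 312 CPM in WT, against 302 and 292 in the libraries labelled KO and 379 and 315 in Mut. Zfp36 (chr7:28376784-28380253, minus strand) varied little by genotype on the scale of the normalised library totals. It was at 1281 and 1133 CPM in LSK WT, 1115 and 1052 in KO and 1149 and 1044 in Mut, and at 786 and 838 CPM in MPP WT, 848 and 818 in the libraries labelled KO and 913 and 852 in Mut. With spike-in scaling its log2 differences from WT were 0.34 and 0.93 for LSK KO and Mut, and 0.09 and -0.47 for MPP KO and Mut. All 6 LSK libraries of Zfp36 lay above all 6 MPP libraries, the lowest of LSK being LSK Mut replicate 2 and the highest of MPP being MPP Mut replicate 1. Its annotated exons overlap with Gm44710 on the other strand, a gene that has no row in the tables.

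Btg2 (chr1:134075170-134079120, minus strand) departed from the others in LSK. It was at 189 and 221 CPM in WT, against 227 and 209 in KO and 224 and 244 in Mut, with log2 differences from WT of 0.07 (SE 0.153) and 0.17 (SE 0.153). In MPP it was at 218 and 240 CPM in WT, against 301 and 261 in the libraries labelled KO and 359 and 395 in Mut. The 3 MPP groups did not overlap and followed the order Mut, KO, WT, by log2 differences from WT of 0.72 (SE 0.117) for Mut and 0.29 (SE 0.117) for KO. With spike-in scaling these were 0.13 and 0.35, so that their order turned. Levels of different genes can be set side by side only per length. Per kb of the longest principal coding transcript of GENCODE M21, Dusp1 was the highest in LSK WT (679 CPM per kb), then Zfp36 (433), Ier3 (310), Nr4a1 (147), Rgs1 (141), Klf6 (109), Klf2 (83.0), Btg2 (74.7), Klf4 (35.6) and Nr4a2 (6.34).

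**Figure D3:**
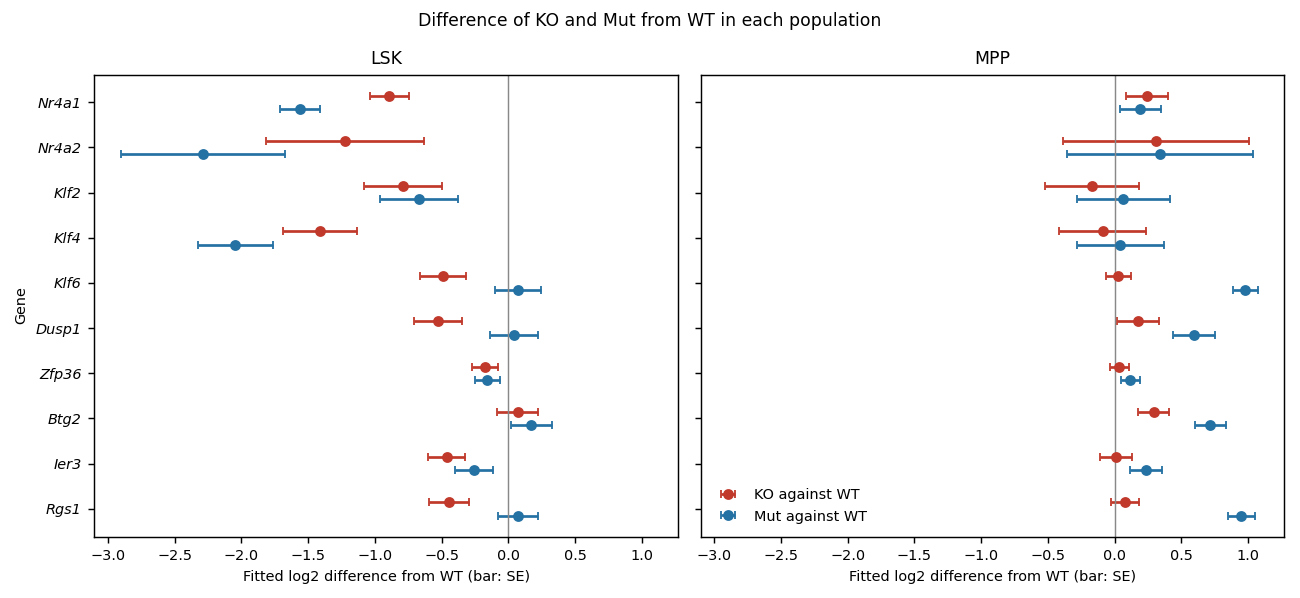
Fitted log2 difference of KO (red) and Mut (blue) from WT for each gene, LSK on the left and MPP on the right on the same scale, with bars of 1 SE. In LSK, Nr4a1, Nr4a2 and Klf4 lie between -2.29 and -0.89, and in MPP the Mut points of Klf6 and Rgs1 lie at 0.98 and 0.95.

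At an adjusted p below 0.05 over all genes, edgeR called 0 of the 10 genes for LSK KO against WT, where 0.0456% of all genes were called. At an unadjusted p below 0.05 it marked 7 of 10 there (13.8% of all genes), and DESeq2 called 4, Nr4a1, Klf4, Dusp1 and Ier3, among 593 genes over all. For LSK Mut against WT edgeR called 2, Nr4a1 and Klf4, both lower (0.737% of all genes were called lower). For LSK KO against Mut it called 0 (0.0607% of all genes), with 4 at an unadjusted p below 0.05 (4.24%), and DESeq2 called 3, among 116 genes over all. For MPP KO against WT it called 0 (0.363%), with 1 at an unadjusted p below 0.05 (8.47%), and DESeq2 called 0, with 272 genes over all. For MPP Mut against WT it called Klf6 and Rgs1, both higher (0.131% called higher), and for MPP KO against Mut the same 2 genes, both lower (0.154% called lower). Since the genes were chosen on these contrasts, nothing is read from the counts. The calls of Nr4a1 and Klf4 for LSK Mut against WT were lost without any 1 library of LSK KO or LSK Mut. Calls over all genes fell in each of these fits as well. When only WT and Mut entered the fit, 0 of the 10 were called, and 5 genes over all against 168. Leaving out LSK WT replicate 1 or 2 raised the count for LSK KO against WT to 4 and 3, while the calls over all genes went from 6 to 1475 and 1690. In MPP, the calls of Klf6 and Rgs1 for Mut against WT were lost without MPP Mut replicate 1. For KO against Mut both were lost without MPP KO replicate 1 or 2 or MPP Mut replicate 1. The call of Rgs1 there was also lost without MPP Mut replicate 2. Calls over all genes fell in each of these MPP fits as well.

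KO was set against Mut directly within LSK as well. Nr4a1, Nr4a2 and Klf4 were higher in both KO libraries than in both Mut libraries (21.7% of all genes), by log2 differences of 0.67 (SE 0.147), 1.06 (SE 0.593) and 0.63 (SE 0.272). Dusp1, Ier3, Klf6 and Rgs1 were lower in both (21.5%), by -0.57 (SE 0.181), -0.21 (SE 0.141), -0.56 (SE 0.170) and -0.52 (SE 0.151). Klf2, Zfp36 and Btg2 overlapped. With spike-in scaling the differences of Nr4a1, Nr4a2 and Klf4 were 0.10, 0.41 and 0.02, and those of Dusp1, Ier3, Klf6 and Rgs1 were -1.19, -0.81, -1.15 and -1.11. In MPP, 6 of 10 were lower in both libraries labelled KO than in both Mut libraries (19.9% of all genes), led by Klf6 at -0.95 (SE 0.0945) and Rgs1 at -0.87 (SE 0.104). With spike-in scaling these were -0.30 and -0.22, while Dusp1, Zfp36, Btg2 and Ier3 turned to 0.23, 0.56, 0.22 and 0.42. On that scale the median of all genes was 0.65.

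LSK was compared with MPP within each genotype in a fit of all 12 libraries. In WT, 8 of 10 genes were higher in both LSK libraries than in both MPP libraries, as were 26.1% of the 14033 genes tested, and 0 were lower in both (30.7%). Nr4a1 had a log2 difference of 1.78 (SE 0.148), Nr4a2 1.70 (SE 0.682), Klf4 1.43 (SE 0.316), Rgs1 0.99 (SE 0.138), Klf2 0.88 (SE 0.363), Klf6 0.61 (SE 0.144) and Zfp36 0.57 (SE 0.0905). In KO, 6 of 10 were higher in both LSK libraries (34.2% of all genes) and 3 were lower in both (30.7%). Nr4a1 was at 0.66 (SE 0.144) and Rgs1 at 0.48 (SE 0.137) there. In Mut, 2 of 10 were higher, Rgs1 and Zfp36 (29.9%), and 5 were lower (27.6%), with Klf4 at -0.64 (SE 0.312) and Btg2 at -0.69 (SE 0.134). Of the 10 genes, edgeR called 5 in WT, all higher (10.2% called higher), 3 in KO, all higher (7.03%), and 1 in Mut, Btg2, lower (5.21% called lower). The genes were chosen with these levels in view, so nothing is read from these counts either. Fewer of the 10 were called in WT without MPP WT replicate 2, and in KO, most of all without a library of LSK KO or MPP KO. In Mut the call was lost without LSK Mut replicate 1 or MPP Mut replicate 2. Calls over all genes fell in each of these fits as well. More of the 10 were called in KO and Mut without LSK WT replicate 1 or 2, where calls over all genes rose too. Spike-ins took 0.0822% to 0.229% of counts in LSK and 3.16% to 5.15% in MPP, and with libraries scaled by them the median of all genes moved by 4.17 in WT, 4.66 in KO and 5.88 in Mut and all 10 genes were higher in LSK.

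**Figure D4:**
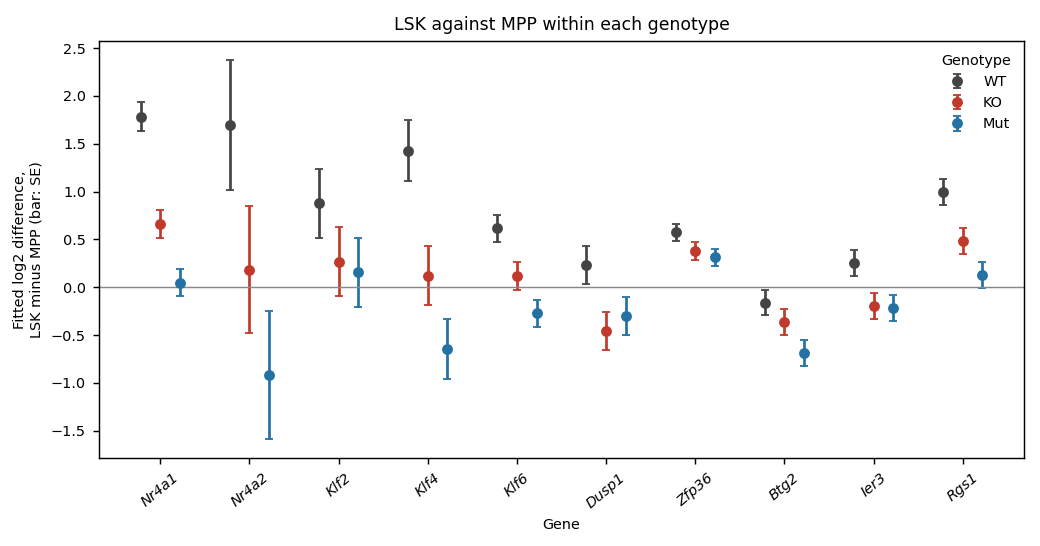
Fitted log2 difference of LSK from MPP for each gene within WT (grey), KO (red) and Mut (blue), with bars of 1 SE. Nr4a1, Nr4a2 and Klf4 have their largest values in WT, from 1.43 to 1.78, and lie between -0.92 and 0.05 in Mut.

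Other measures of the libraries were set beside these levels, and several differed between genotypes, not always in the order of the 10 genes. In LSK, the share of Rn45s followed the order WT, KO, Mut that Nr4a1, Nr4a2 and Klf4 followed. Of 8 granulocyte-monocyte genes, 1 was called higher in KO and 3 in Mut, and their summed level was 2080 to 2500 CPM in WT, against 4815 to 5122 in KO and 5961 to 6171 in Mut. Of 10 stem cell genes 0 were called by edgeR in either genotype (5 in each at an unadjusted p below 0.05, 0 in KO and 3 in Mut by DESeq2), and their sum was 964 to 1173 CPM in WT, against 832 to 879 in KO and 801 to 983 in Mut. The T and NK cell list held 5 of 8 genes at 0 in LSK WT, 0 in KO and 2 in Mut, with Cd3e at 0 in both WT and Mut. Its sum was 237 to 278 CPM in WT, against 402 to 413 in KO and 426 to 434 in Mut. In MPP, the mast cell and basophil list followed the order Mut, WT, KO: 3 of 6 genes, Fcer1a, Mcpt8 and Prss34, were called higher in Mut and the same 3 lower in the libraries labelled KO, and the sum was 8426 to 8994 CPM in WT, against 5244 to 5645 in KO and 12170 to 12650 in Mut. Of 8 neutrophil genes 3 were called lower in MPP Mut, with sums of 2062 to 2167 CPM in WT and 1085 to 1092 in Mut. Of the granulocyte-monocyte genes, 2 were called lower in the libraries labelled MPP KO, Elane and Mpo, and 3 in MPP Mut, Elane, Mpo and Prtn3, with sums of 59900 to 63110 CPM in WT, against 48260 to 48940 in KO and 48230 to 50630 in Mut. Of the erythroblast list, Alas2, Klf1 and Slc4a1 were among the genes called higher in the libraries labelled MPP KO, and Slc4a1 was called higher in MPP Mut, with sums of 541 to 640 CPM in WT, 1101 to 1125 in KO and 816 to 892 in Mut. The part of these measures in the levels of the 10 genes was not tested.

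Relatives of the 10 genes from the same families were measured beside them. Of 36 relatives (Nr4a3 and other Klf, Dusp, Zfp36, Btg and Tob, Ier and Rgs genes), 0 were called for LSK KO against WT by edgeR (9 at an unadjusted p below 0.05, 6 called by DESeq2) and 24 lay below 0, with a median log2 difference of -0.37. For LSK Mut against WT 1 was called, Klf10, a factor induced by TGF-beta, at 82.2 ± 4.10 CPM against 191 ± 0.679 in WT (log2 -1.23, SE 0.167, adjusted p = 0.0292 by edgeR). The median was -0.46. For MPP KO against WT 1 was called, Klf1, the erythroid factor, higher, and for MPP Mut against WT 0 were called by edgeR (5 at an unadjusted p below 0.05, 2 by DESeq2). The relatives with the highest mean CPM were Ier2, Rgs2, Zfp36l2 and Dusp2. Ier2 was at 1424 ± 168 CPM in LSK WT, 1124 ± 26.6 in KO and 1505 ± 88.0 in Mut, with KO the lowest as for Klf6 and Rgs1. Rgs2 was at 475 ± 48.0 CPM in MPP WT, 552 ± 18.7 in the libraries labelled KO and 700 ± 29.3 in Mut (log2 0.56, SE 0.0915, adjusted p = 0.0842 for Mut by edgeR).

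A list of 30 other immediate early genes was lower in LSK KO than in WT for 29 of them by sign, with a median log2 difference of -0.75 and 0 called by edgeR (14 at an unadjusted p below 0.05, 8 called by DESeq2). For LSK Mut against WT 27 lay below 0 with a median of -1.03, and 3 were called lower: Fosb, an AP-1 subunit (313 ± 3.53 against 647 ± 72.2 CPM, adjusted p = 0.0225), Per1, a repressor of the circadian clock (39.8 ± 5.09 against 153 ± 11.9 CPM, adjusted p = 0.0225), and Nfkbia, the inhibitor of NF-kB (240 ± 15.2 against 400 ± 24.4 CPM, adjusted p = 0.0456). In MPP, where 29 were tested, the median was 0.04 for KO, with 0 called by edgeR (4 at an unadjusted p below 0.05, 0 by DESeq2), and 0.10 for Mut. Egr1, a zinc finger factor induced through SRF, and Fos, the AP-1 subunit, were called higher in MPP Mut than in WT, Egr1 at 818 ± 12.1 against 426 ± 14.8 CPM (log2 0.94, SE 0.0937, adjusted p = 0.00657) and Fos at 4476 ± 75.1 against 3207 ± 111 CPM (log2 0.48, SE 0.0392, adjusted p = 0.00268). Both were called lower in the libraries labelled MPP KO than in Mut. Jun and Junb, the other 2 of the 4 genes with the highest mean CPM in the list, were called in none of these comparisons. Several of the list's genes were known to be lower in these LSK libraries when it was drawn up, so that its counts are no independent evidence.

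Of 32 upstream kinases and factors 0 were called for LSK KO against WT by edgeR (5 at an unadjusted p below 0.05, 2 called by DESeq2), with a median log2 difference of -0.09. For LSK Mut against WT 1 was called, Map2k1, which encodes the kinase MEK1, higher at 87.6 ± 0.308 against 31.5 ± 0.104 CPM (adjusted p = 0.0465). It was at 87.8 ± 11.5 CPM in LSK KO. In MPP 0 were called by edgeR, with 2 at an unadjusted p below 0.05 for KO against WT (0 by DESeq2), 3 for Mut against WT (1 by DESeq2) and 2 for KO against Mut (0 by DESeq2). Rps6ka1, Trp53 and Mapk14, among the genes with the highest mean CPM in the list, were not called in the genotype comparisons. In LSK KO against WT, Mapk14, encoding p38 alpha, had a log2 difference of 0.11 (SE 0.276).

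Of 28 genes downstream of the 10 (targets of Klf2, CCR4-NOT subunits, G proteins and receptors met by Rgs1, cytokine mRNAs that Zfp36 destabilises, and cyclins), 27 were tested in LSK, with 0 called for KO against WT by edgeR (5 at an unadjusted p below 0.05, 0 by DESeq2). In MPP, Cxcl2 was called higher for KO against WT. Ccl3, a chemokine whose mRNA carries AU-rich elements, was at 318 ± 51.0 CPM in MPP WT, 253 ± 4.27 in the libraries labelled KO and 491 ± 33.7 in Mut, and was called lower in KO than in Mut (log2 -0.96, SE 0.124, adjusted p = 0.0236). Gnai2, a G protein subunit, and Ccnd2, cyclin D2, were not called in the genotype comparisons.

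The genes whose levels over the 12 libraries were most like the mean standardised level of the 10 were Cdc7 (Pearson r = 0.901), Ube4b (0.900), Wdr43 (0.890), Egr1 (0.882), Pop5 (0.875) and Akap8l (0.873), out of 9863 genes compared. The 12 libraries come in pairs from 1 pool and share the mice between populations, so r describes these libraries only. All 6 had their highest group mean in LSK WT, such as Cdc7 with 212 CPM there against 94.9 in LSK KO and 83.3 in LSK Mut. In MPP, Cdc7 was at 62.0 CPM in WT, against 88.9 in the libraries labelled KO and 108 in Mut. Of the 6, 5 were also among the first 6 on plain library totals and 2, Egr1 and Pop5, with Spearman's correlation.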

How the data were processed

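RNA from sorted marrow cells was amplified, ERCC spike-ins were added and read pairs were sequenced, per the labels. Per the submitters' processing notes, trimming used Trim Galore 0.4.1 and alignment to mm10 used TopHat2 2.0.13, beside which HTSeq 0.6.1 and Cufflinks are listed. The authors deposited raw counts per gene symbol in 1 table per population (24538 genes and 92 spike-ins). The MPP column headed as a second KO library of number 3 was taken as MPP KO replicate 2, whose title it shares but for that number.

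Counts were fitted with edgeR 4.0.16 (filterByExpr with minimum count 10 and minimum total 15, TMM over genes, quasi-likelihood test, Benjamini-Hochberg over all genes tested, called at 0.05) on the 6 libraries of a population (3 residual degrees of freedom) or, for LSK against MPP, on all 12 (6). The SE is the log2 difference over the square root of F. CPM use 1 TMM scaling of all 12 libraries. The members and lists were chosen with earlier results of these data known. In each list the 4 genes of highest mean CPM and up to 4 called in LSK against WT were named, and genes called elsewhere in counts of 5 or fewer (Klf1 and Cxcl2) were named after their values were seen. Alternatives were DESeq2 1.42.0 (test or size factors), spike-in scaling, no filter, other sets of libraries, a replicate block and each library left out. The fit was tested on simulated data. Some genes that this rule names are not reported here.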

Additional observations from a re-analysis of the deposited data

Results flagged for a closer look

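Nr4a1, Nr4a2, Klf6 and Ier3 went opposite ways in the 2 populations, lower than WT in LSK and higher in MPP in every library. This held for KO or Mut as given below, on the scale of the normalised library totals. The share of all genes that did so was not computed, so nothing is read from their number. None of these differences between populations was tested, since the genes were chosen on these values. For KO against WT the log2 differences in LSK and MPP were -0.89 and 0.24 for Nr4a1, -1.22 and 0.31 for Nr4a2 and -0.49 and 0.027 for Klf6. For Mut against WT they were -1.56 and 0.19 for Nr4a1 and -0.26 and 0.24 for Ier3. Those of Nr4a2 and Klf6 in MPP KO were smaller than their SEs (0.699 and 0.0940). With spike-in scaling Nr4a1 and Nr4a2 in KO kept opposite signs, at -0.40 and 0.31 and at -0.74 and 0.36, and Klf6 was at -0.01 and 0.09. In Mut both values of Nr4a1 lay below 0 on that scale, at -0.49 and -0.39, and Ier3 turned to 0.85 and -0.35.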

How the results depend on the processing

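Without the spike-in scaling, the differences of Nr4a1, Nr4a2 and Klf4 from WT in LSK and of Klf6, Rgs1, Btg2 and Dusp1 between MPP Mut and WT kept their sign under all 12 other settings. Spike-in scaling moved the median of the 10 genes to -8.99e-04 for LSK KO, 0.89 for LSK Mut and -0.31 for MPP Mut, and the genes with both libraries lower to 3 and 2 in LSK KO and Mut and higher to 2 in MPP Mut. For these last counts the share of all genes was not computed. With that scaling 4 were called for LSK Mut (Klf6, Dusp1, Btg2 and Rgs1, higher), with 2980 genes called higher and 22 lower over all. For MPP Mut 1 was called (Zfp36, lower), with 16 higher and 2281 lower over all. For MPP KO against Mut 2 were called (Nr4a1 and Zfp36, higher, in place of Klf6 and Rgs1), with 3236 genes higher and 18 lower over all. For LSK against MPP all 10 were called in each genotype, among 11550, 12011 and 12570 genes in WT, KO and Mut. There Btg2 in Mut turned to 5.19. With no filter 1 of the 10 was called for LSK KO (50 genes over all) and 4 for MPP Mut (217 over all). The DESeq2 test called 4 for LSK KO (593 over all) and 3 for LSK KO against Mut (116 over all). It called 5 and 2 for LSK against MPP in KO and Mut (3163 and 2249 over all). With all 12 libraries in one fit 1 was called for LSK KO (272 over all) and 1 for MPP KO against Mut (14 over all). With only the groups compared the counts were 0 for LSK Mut (5 over all) and 2 for LSK against MPP in Mut (1696 over all). The cause was not tested.

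With 1 library left out, calls ranged from 0 to 4 for LSK KO, 0 to 3 for LSK Mut, 0 to 3 for MPP Mut, 0 to 2 for MPP KO against Mut, and 3 to 6, 0 to 4 and 0 to 2 for LSK against MPP in WT, KO and Mut. The medians ranged from 0.045 to 0.15 for MPP KO and 0.29 to 0.59 for MPP Mut, and the genes with both libraries higher from 5 to 7 for MPP KO. The share of all genes was not computed beside that last count, so nothing is read from it. Where an arm kept 1 library, it was assumed to vary like the others.

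The replicate numbers do not pair the libraries: the deviations of same-numbered libraries correlated between -0.051 and 0.0449. With a replicate block 1 was called for LSK Mut, Nr4a1, and 35 genes over all, against 168 without it. Over all genes, calls for LSK KO were 6 as reported, 593 by DESeq2, 272 with 12 libraries, 50 with no filter, 71 by spike-ins and 3 with only the groups compared, and 0 to 1690 with a library left out. For LSK Mut they were 168, 1398, 949, 475, 3002 and 5, and 5 to 2631.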
